A study of Mus musculus with 4 samples.

Results

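Promoters that lacked an ATAC-Seq peak in every library of mouse rib chondrocytes were collected and described. A promoter was counted as lacking a peak when no peak summit, the position of highest pileup within a peak, lay within 1 kb of the transcription start site (TSS) on either side. The TSS was the 5′ end of the gene record. Of 17350 autosomal protein-coding genes found once by symbol on the same chromosome of both genome builds, 4767 (27.5%) had no summit in any of the 4 libraries. These are called summit-free genes here, a short name for that rule. At the other end, 9295 genes (53.6%) had a summit in all 4 libraries, 948 had one in 1 library, 696 in 2 and 1644 in 3. Because the peak lists chose the genes, every count of summits at their promoters is a description and carries no test.

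The libraries came from primary chondrocytes of newborn mouse rib cartilage and released by collagenase. Cho replicates 1 and 2 carry no genotype in their labels, the WT library came from WT mice, and the deletion library from mice labelled E160(delta/delta);E308(delta/delta). Per the study's methods, those mice lack 2 elements upstream of Sox9 on both alleles, edited with CRISPR/Cas9 on the C57BL/6J background, and WT mice were littermates. WT and the deletion had 1 library each, so a difference between them is a difference between 2 libraries. Defining markers of the labelled cell type were read first: all 3 chondrocyte regulators (Sox9, Sox5 and Sox6) and 14 of 17 chondrocyte effector genes had a promoter summit in at least 1 library. The share of these effectors without any was 17.6%, against 27.5% of all genes. In all 4 libraries a summit was present at 7 of the 17 effectors and 2 of the 3 regulators, against 53.6% of all genes. These counts do not set the chondrocyte genes clearly apart from all genes. Read depth is not in the files, and peak lists of 87815, 148330, 90971 and 169591 entries (Cho replicates 1 and 2, WT, deletion) set how many promoters could be reached. Cho replicate 2 was listed on mm10 and the other 3 libraries on mm9, and each was compared with gene starts of its own build.

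ATAC-Seq reads out where the Tn5 transposase can reach DNA, and the starts of transcribed genes are commonly kept free of nucleosomes. About the start, vertebrate genes fall broadly into those inside a CpG island, a stretch rich in unmethylated CG dinucleotides that tends to be open in most cell types, and those with few CG dinucleotides, whose opening usually depends on factors of a particular tissue. Large families of receptors, secreted proteins and structural proteins that serve nose, skin, liver, gut, germ line or immune cells lie side by side in clusters made by gene duplication.

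The 200 bases upstream of the TSS are shown for 6 genes, 4 of the summit-free genes and 2 with a summit in all 4 libraries, to show the range of CG content that the counts below summarise. Letters were read from NCBIM37 (mm9) and every CG dinucleotide is in capitals. Olfr1034, an olfactory receptor that opens the longest run, covers chr2:85886408-85886607, plus strand. Alb, serum albumin of liver, covers chr5:90889715-90889914, plus strand. Comp, cartilage oligomeric matrix protein and itself a chondrocyte gene, covers chr8:72897247-72897446, plus strand. Syt16, a synaptotagmin, covers chr12:75098548-75098747, plus strand, and had the highest CpG ratio of the summit-free genes. Sox9 covers chr11:112643338-112643537, plus strand. Col3a1, a fibrillar collagen, covers chr1:45368183-45368382, plus strand, and had a summit in all 4 libraries without any CG in this stretch.
Olfr1034: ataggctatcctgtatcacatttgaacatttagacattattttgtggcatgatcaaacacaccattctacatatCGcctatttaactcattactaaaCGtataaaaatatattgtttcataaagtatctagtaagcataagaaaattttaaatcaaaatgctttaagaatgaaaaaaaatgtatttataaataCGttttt
Alb: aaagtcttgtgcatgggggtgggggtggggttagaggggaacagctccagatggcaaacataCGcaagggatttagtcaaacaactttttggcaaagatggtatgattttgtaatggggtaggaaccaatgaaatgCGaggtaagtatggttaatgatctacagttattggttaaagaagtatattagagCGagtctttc
Comp: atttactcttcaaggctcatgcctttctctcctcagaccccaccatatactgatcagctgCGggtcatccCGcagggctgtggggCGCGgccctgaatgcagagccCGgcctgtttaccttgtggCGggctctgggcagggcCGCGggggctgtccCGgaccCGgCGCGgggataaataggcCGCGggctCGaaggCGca
Syt16: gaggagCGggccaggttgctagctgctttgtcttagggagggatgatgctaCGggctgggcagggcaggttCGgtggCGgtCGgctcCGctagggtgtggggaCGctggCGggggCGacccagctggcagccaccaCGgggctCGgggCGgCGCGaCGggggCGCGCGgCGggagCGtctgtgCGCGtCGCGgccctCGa
Sox9: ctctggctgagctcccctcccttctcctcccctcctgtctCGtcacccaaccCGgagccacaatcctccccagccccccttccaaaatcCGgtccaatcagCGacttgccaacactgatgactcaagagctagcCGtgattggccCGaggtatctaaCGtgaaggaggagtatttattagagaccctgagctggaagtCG
Col3a1: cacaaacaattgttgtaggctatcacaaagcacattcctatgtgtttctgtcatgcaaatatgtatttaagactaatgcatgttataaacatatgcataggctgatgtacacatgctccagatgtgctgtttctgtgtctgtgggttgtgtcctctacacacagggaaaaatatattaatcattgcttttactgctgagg
These stretches held 3, 3, 16, 25, 8 and 0 CG dinucleotides, in the order listed. Comp and Syt16 held more CG dinucleotides than Sox9 and Col3a1, so CG content did not sort the 2 kinds of gene in each single case.

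Summit-free genes were poor in CpG. In the window from 250 bases before to 50 bases after the TSS, the ratio of observed to expected CG dinucleotides had a median of 0.162 (quartiles 0.0821 and 0.281), against 0.777 (0.609 and 0.915) in genes with a summit in all 4 libraries and 0.574 over all genes. The median number of CG dinucleotides in the 300-base window was 2 against 21, and the median GC content 45.3% against 61.3%. No CG at all stood in the window of 753 summit-free genes (15.8%) and of 11 genes with a summit in all 4. Genes with a summit in 1 to 3 libraries lay between, with a median CpG ratio of 0.425. Leaving out the sensory receptor families described below, the summit-free genes had a median ratio of 0.186.

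**Figure D1:**
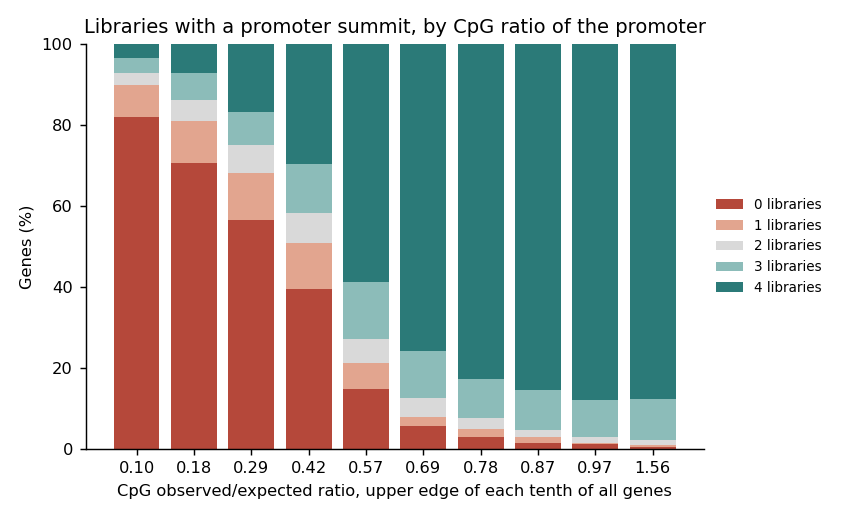
Share of genes (y axis, percent) with a promoter summit in 0, 1, 2, 3 or 4 libraries, in 10 groups of about equal size ordered by the CpG observed/expected ratio of the promoter window (x axis, upper edge of each group). The share without any summit was 81.9% in the lowest group and 0.519% in the highest.

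Across the 10 groups of that plot, the share of genes without a summit in any library was 81.9% in the group with the lowest CpG ratio, 39.6% in the fourth, 14.7% in the fifth and 0.519% in the highest. Without the sensory receptors the lowest group stood at 72.5%. Among the 8356 genes with a ratio of at least 0.6, 170 (2.03%) were summit-free genes, and 17 of them had a summit at another annotated start. The 5 with the highest ratios were Syt16 (1.09), Plch2 (1.06), Hs3st4 (1.01), 4933428G20Rik (1.01) and Lypd4 (0.992). Of these, Plch2 had a summit at another annotated start in Cho replicate 2, WT and the deletion. Hs3st4, a heparan sulfate sulfotransferase gene, had its nearest summit 3.445 kb upstream (Cho replicate 1), 69.571 kb downstream (Cho replicate 2), 202.118 kb upstream (WT) and 18.05 kb upstream (deletion). No library placed that summit where another did. Cdx1, a homeobox gene of intestinal epithelium with a ratio of 0.917, had summits 3.875 kb, 3.837 kb and 3.826 kb upstream in Cho replicate 1, WT and the deletion, and 3.286 kb downstream in Cho replicate 2.

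Other features of the gene starts moved with the lack of a summit. The letters TATAAA, searched on the sense strand from 40 to 16 bases before the TSS, stood in 6.02% of summit-free genes, 0.871% of genes with a summit in all 4 and 2.52% of all genes. Summit-free genes were shorter, with a median gene record of 5987 bases against 24649, and 28.6% had a single exon against 1.72%. The gene record began on a coding base, so that no 5′ untranslated region was annotated, in 24.1% against 1.66%. For such genes the NCBIM37 position used as TSS in Cho replicate 1, WT and the deletion was the annotated start of translation. The mm10 starts used for Cho replicate 2 were not examined in this way. Much of the contrast in single exons and in starts on a coding base came from the sensory receptor families described below. Without them, 7.57% of summit-free genes had a single exon and 8.68% began on a coding base. Their median record was then 10583.5 bases, still well below the 24666 of genes with a summit in all 4. TATAAA then stood in 8.17%, a larger share than with the receptors. Of the 1075 olfactory receptor genes, 609 began on a coding base and 600 of these had no summit (98.5%), and of the 466 with an annotated upstream start 447 had none (95.9%).

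Short reads that fit in more than 1 place of the genome can be lost when peaks are called. As a measure of that, stretches of 100 bases were taken every 20 bases within 1 kb of each TSS, and the share that recurred elsewhere in NCBIM37 was counted. At least 1 recurring stretch was present at 31.3% of summit-free genes, 7.84% of genes with a summit in all 4 and 15.1% of all genes. At 286 summit-free genes and 15 genes with a summit in all 4, 50% or more of the stretches recurred. Among the 14729 genes with no recurring stretch, 3274 (22.2%) lacked a summit. Of the 615 olfactory receptors with none, 600 (97.6%) lacked a summit, close to the share in the whole family. Of the predicted genes with symbols of the form Gm and a number, 297 of 407 (73.0%) were summit-free genes, and a mean of 44.5% of their stretches recurred. Higher means were found for alpha-defensins (58.4%) and major urinary proteins (55.7%), and lower ones for vomeronasal receptors type 1 (24.7%) and type 2 (21.6%). The part of recurring sequence in the counts of these families was not tested.

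Gene families were defined by symbol. Of 44 families with at least 10 genes, 13 had over 90% of their genes without a summit in any library, against 27.5% of all genes. Genes of a family often share sequence and neighbourhood, so they cannot be taken as independent of each other, and these shares carry no test. In all, 2518 summit-free genes (52.8%) fell under one of the 52 symbol patterns, and 2249 (47.2%) under none. The patterns include predicted genes with symbols of the form Gm and a number (297 summit-free genes) and genes with RIKEN cDNA symbols. Both groups rest on the form of the symbol alone, so the 2518 overstates how many summit-free genes belonged to a family of related genes.

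**Figure D2:**
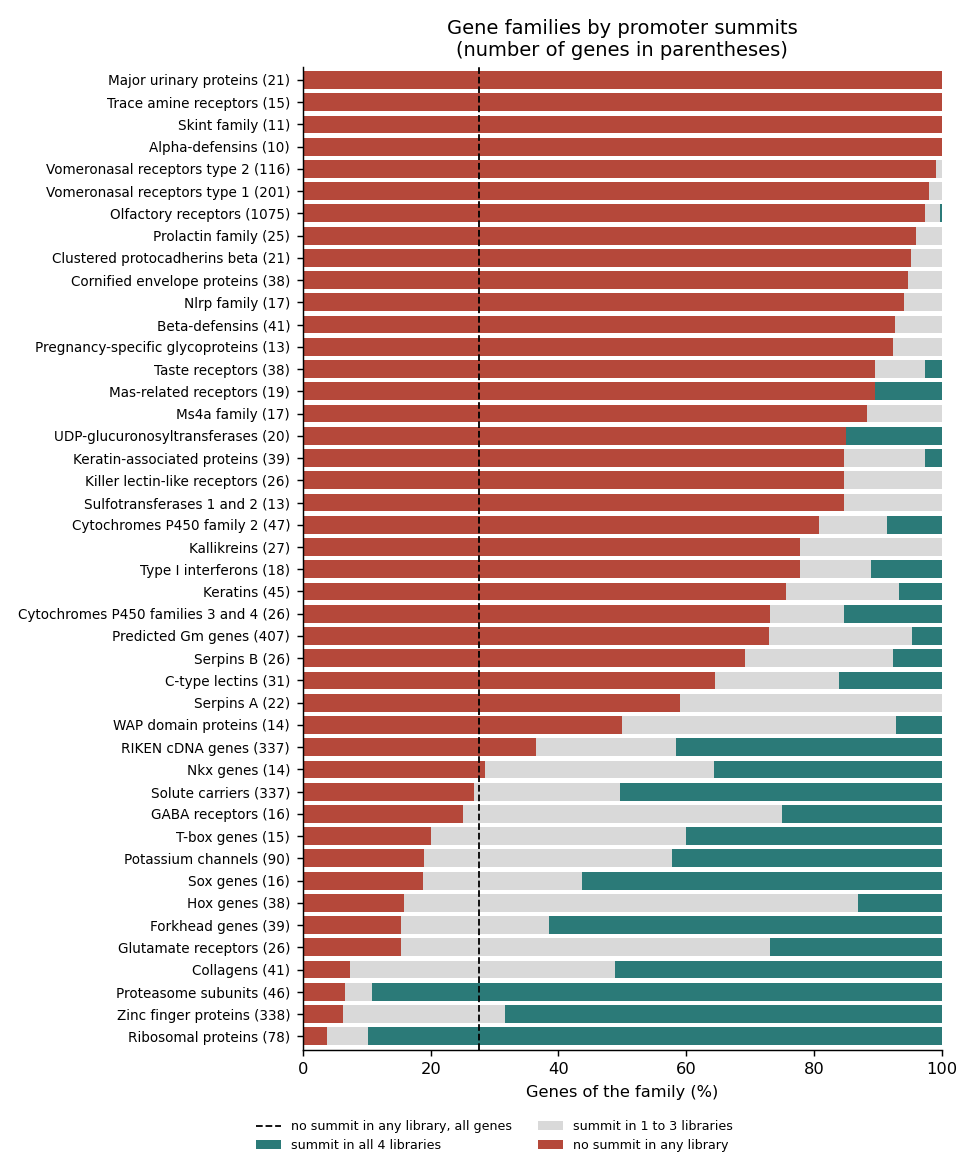
Gene families with at least 10 genes, ordered by the share of genes with no promoter summit in any library (red), in 1 to 3 libraries (grey) or in all 4 (green). The dashed line is the share of all genes with no summit, 27.5%, and the families of the nose and skin lie far to its right while ribosomal proteins and zinc finger proteins lie to its left.

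Chemosensory receptors made up the largest block. Olfactory receptors, each of which senses odorants on neurons of the nose, numbered 1075, and 1047 (97.4%) were summit-free genes. Vomeronasal receptors, which sense pheromones, had 197 of 201 (98.0%) in type 1 and 115 of 116 (99.1%) in type 2. All 15 trace amine receptors, 34 of 38 taste receptors (89.5%) and 17 of 19 Mas-related receptors (89.5%) lacked a summit as well. Together these families gave 1425 of the 4767 genes (29.9%), and over all other genes the share was 21.0% (3342 of 15886). The median CpG ratio of olfactory receptors was 0.108.

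A summit in all 4 libraries was present at 3 olfactory receptors. At Olfr658 the summits lay 0.065, 0.058, 0.021 and 0.009 kb upstream of the TSS in Cho replicates 1 and 2, WT and the deletion, with fold enrichments over background of 3.80, 9.13, 5.15 and 6.15. At Olfr433 they lay 0.845, 0.934, 0.93 and 0.882 kb upstream, and at Olfr94 they lay 0.651, 0.613, 0.623 and 0.606 kb downstream. In Olfr658 the summit thus sat on the annotated start, and in the others it sat nearer to the edge of the window. Mrgprf and Mrgpre, the 2 Mas-related receptors outside the rule, had summits in all 4 libraries, with fold enrichments from 3.96 to 18.9.

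Genes of skin and hair were read as a group. Cornified envelope proteins, which cross-link into the outer layer of the epidermis, had 36 of 38 without a summit (94.7%), keratin-associated proteins of hair 33 of 39 (84.6%) and keratins, the intermediate filaments of epithelia, 34 of 45 (75.6%). Krt13, Krt19 and Krt80 were the keratins with a summit in all 4. Keratins had a higher median CpG ratio than the receptors (0.313). For the 34 summit-free keratins the nearest summit in any library lay at a median of 4.93 kb. For the 1047 summit-free olfactory receptors the median was 56.7 kb. By the rule, each of these distances exceeds 1 kb. Krt5, a keratin of basal epidermis, had a summit 1.07 kb upstream in Cho replicate 1 and 3.132, 3.148 and 3.146 kb upstream in Cho replicate 2, WT and the deletion. Ivl, involucrin, had none closer than 62.696 kb.

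Families of defence, detoxification and reproduction were counted in the same way. All 10 alpha-defensins and 38 of 41 beta-defensins (92.7%), antimicrobial peptides of epithelia, lacked a summit, as did 22 of 26 killer lectin-like receptors (84.6%) and 20 of 31 C-type lectins (64.5%) of immune cells. Cytochromes P450 of family 2, which oxidise drugs and steroids, had 38 of 47 (80.9%), UDP-glucuronosyltransferases 17 of 20 (85.0%) and major urinary proteins, made by liver, 21 of 21. In the alpha-defensins and the major urinary proteins, means of 58.4% and 55.7% of the 100-base stretches around the TSS recurred elsewhere in the genome, and the part of this in their counts was not tested. The prolactin family of placental hormones had 24 of 25 (96.0%), pregnancy-specific glycoproteins 12 of 13 (92.3%) and the Nlrp family, with members in oocytes and in innate immunity, 16 of 17 (94.1%). Beta protocadherins, cell-surface proteins of neurons, had 20 of 21 (95.2%) although their median CpG ratio was 0.426. They were the family over 90% with the highest ratio.

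Families with few summit-free genes stood at the other end. Ribosomal proteins had 3 of 78 without a summit (3.85%), proteasome subunits 3 of 46 (6.52%), zinc finger proteins 21 of 338 (6.21%) and collagens 3 of 41 (7.32%). The exceptions among ribosomal proteins were Rpl10l, Rpl3l and Rps2. Rps2, a protein of the small ribosomal subunit, had summits 1868, 1830, 1926 and 1777 bp downstream of the start of its gene record in Cho replicates 1 and 2, WT and the deletion. That is, the 4 libraries placed a summit at nearly the same distance, beyond the window. The collagens were Col28a1, Col6a6 and Col17a1. Developmental regulators held a middle place: Hox genes had 6 of 38 (15.8%), forkhead genes 6 of 39 (15.4%), Sox genes 3 of 16 (18.8%) and Pax genes 5 of 9. The Sox genes were Sox14, Sox17 and Sox18, and the Pax genes Pax4, Pax5, Pax6, Pax8 and Pax9. Pax6 had a summit within 1 kb of another annotated start in Cho replicate 1, WT and the deletion, and Pax8 had one in WT alone. Solute carriers, with 90 of 337 (26.7%), lay at the level of all genes.

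Lists of marker genes were read the same way, with effector genes (structural and secreted proteins, enzymes, receptors) kept apart from regulators, which are mostly transcription factors. None of 16 housekeeping genes was a summit-free gene. Over 12 other cell types, 90 of 127 effector genes (70.9%) and 23 of 55 regulator genes (41.8%) had no summit in any library, against 27.5% of all genes. The effectors had a median CpG ratio of 0.253 and the regulators of 0.548. Below a ratio of 0.5, 80 of 107 effectors and 15 of 23 regulators lacked a summit, and at or above it 10 of 20 and 8 of 32 did. With a window of 2 kb the shares without a summit were 53.5% of effectors and 25.5% of regulators against 4123 of the 17350 genes. The regulators thus lay close to the share of all genes at 2 kb, and the effectors above it.

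**Figure D3:**
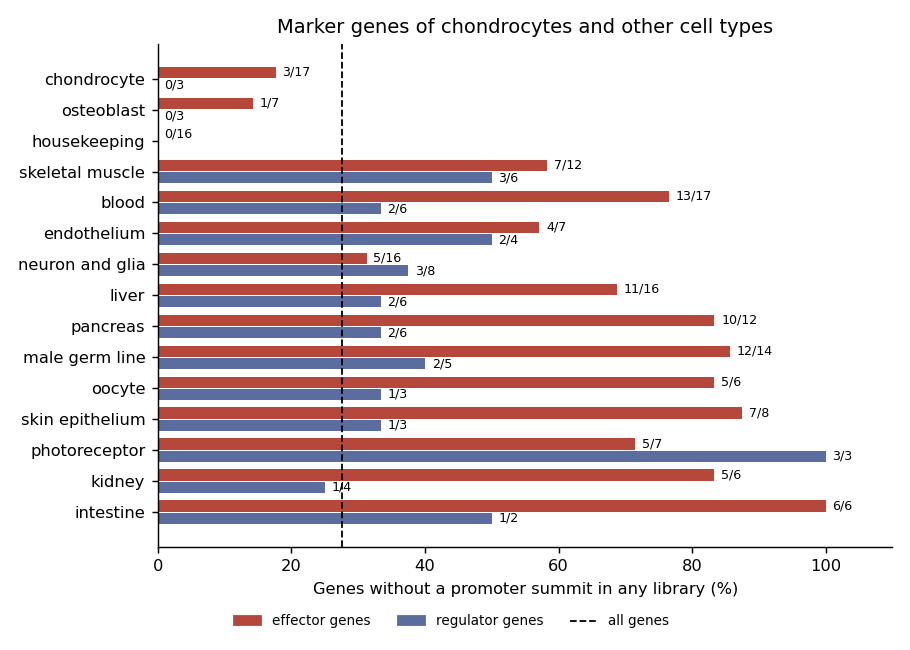
Share of marker genes without a promoter summit in any library (x axis, percent) for chondrocytes, osteoblasts, housekeeping genes and 12 other cell types, with counts at the bar ends. The dashed line marks all genes (27.5%), and the chondrocyte list stands at 3 of 17 effectors and 0 of 3 regulators.

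The lists differed among themselves. Intestinal effectors, such as Vil1 of the brush border and Lct, the gene for lactase, lacked a summit in 6 of 6 cases. Blood effectors did in 13 of 17, liver in 11 of 16, skeletal muscle in 7 of 12 and neurons and glia in 5 of 16. Of the muscle regulators, Myf5, Myf6 and Myog had no summit and the others had one in some libraries. Photoreceptor regulators Crx, Nrl and Otx2 were without one in 3 of 3 cases, although Otx2 had a summit at another annotated start in Cho replicate 2 and in the deletion.

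Some of these genes carried a summit close by in every library. Csf1r, the receptor that macrophages need, had summits 1.477, 1.445, 1.445 and 1.439 kb downstream of its TSS in Cho replicates 1 and 2, WT and the deletion, with fold enrichments of 15.2, 13.0, 5.79 and 10.8. Apoa1, an apolipoprotein of liver and gut, had them 1.518, 1.511, 1.563 and 1.522 kb downstream. The positions were alike in the 4 libraries, outside the window. Alb had them 2.03, 1.971 and 2.01 kb upstream in Cho replicates 1 and 2 and the deletion, whereas the nearest in WT lay 6.587 kb downstream. Umod, a kidney gene, was far from any: 194.413, 33.99, 127.345 and 40.62 kb upstream.

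Comp, Epyc and Cytl1 were the chondrocyte effectors among the summit-free genes. Comp, which binds collagen fibrils, had summits 1.142, 1.146, 1.162 and 1.196 kb downstream of the TSS in Cho replicates 1 and 2, WT and the deletion, with fold enrichments of 4.65, 4.03, 5.13 and 4.98. The libraries agree within about 0.1 kb, and the gene fell under the rule because the summit lay beyond 1 kb. Epyc, a small proteoglycan of cartilage, had its nearest summit 1.94 and 1.991 kb upstream in Cho replicate 2 and the deletion, and 6.496 and 6.508 kb downstream in Cho replicate 1 and WT. In Cho replicate 2 and the deletion a summit lay at another annotated start of Epyc. Cytl1, a secreted protein of cartilage, had summits 4.572, 4.558, 4.594 and 4.576 kb upstream, with fold enrichments of 2.96, 17.4, 12.3 and 12.3. Sost, the osteocyte gene for sclerostin, had them 1.996, 1.945 and 1.965 kb upstream in Cho replicate 2, WT and the deletion and 17.268 kb upstream in Cho replicate 1.

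The nearest summit outside the promoter window was farther from summit-free genes than from genes with a summit in all 4 libraries. The Cho replicates had median distances of 34.02 kb against 7.61 kb (replicate 1) and of 16.7 kb against 5.50 kb (replicate 2). WT had 26.6 kb against 8.32 kb, and the deletion 13.6 kb against 5.54 kb. For the summit-free genes the medians fell as the peak lists grew longer. With the lists of Cho replicate 2, WT and the deletion shortened to their 76242 strongest intervals, the number in the list of Cho replicate 1, these medians were 29.95, 28.9 and 30.2 kb. Cho replicate 1 kept all its 87815 summits, since its intervals can hold more than 1, and was thus not matched in summit number. No summit lay beyond the window and within 50 kb for 42.5%, 32.3%, 38.6% and 28.3% of summit-free genes, against 3.80%, 1.40%, 3.86% and 0.871%. The fold enrichments of these summits had medians of 6.33 in both kinds of gene in Cho replicate 1, 8.79 against 7.44 in Cho replicate 2, 7.23 against 7.04 in WT and 6.15 in both kinds in the deletion.

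**Figure D4:**
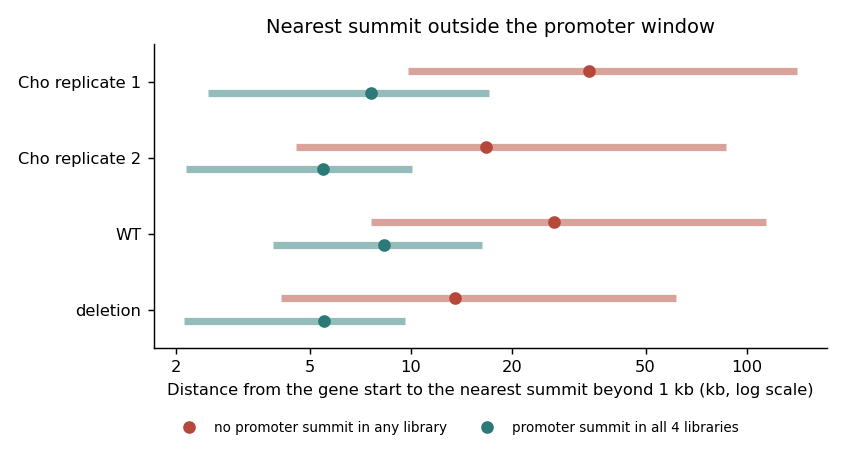
Distance from the TSS to the nearest summit beyond 1 kb (x axis, kb, log scale) in each library, with the median (point) and quartiles (bar) of the 4767 genes without a promoter summit (red) and the 9295 with one in all 4 (green). In each library the red median lies to the right, from 34.02 against 7.61 kb in Cho replicate 1 to 13.6 against 5.54 kb in the deletion.

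With all 4 libraries combined, the nearest summit lay at a median of 10.4 kb (quartiles 3.26 and 46.9 kb). It lay between 1 and 2 kb for 644 summit-free genes (13.5%), between 2 and 10 kb for 1711 (35.9%), between 10 and 50 kb for 1260 (26.4%), between 50 and 100 kb for 451, between 100 and 500 kb for 649 and beyond 500 kb for 52. The farthest were Vmn1r129, Vmn1r128 and Vmn1r127, neighbouring vomeronasal receptors on chromosome 7 whose nearest summit in any library lay 1405, 1393 and 1363 kb away. Of the 100-base stretches around their TSS, 72.9%, 35.4% and 84.4% recurred elsewhere, and the part of this in the distances was not tested. At the border of the rule, 64 genes had their nearest summit over 1000 and up to 1100 bp away and 94 had it over 900 and up to 1000 bp away. Just outside the window lay Myo1c (1003 bp), Klf1 (1004 bp), Best2 (1006 bp), Myf6 (1007 bp) and Gm572 (1008 bp), and just inside Il13 (999 bp), Bdkrb1 (996 bp), Cln8 (996 bp), Ifitm5 (994 bp) and Calcb (992 bp). Myo1c also had a summit at another annotated start in each library. For 126 summit-free genes a peak interval reached into the window while its summit lay outside.

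A lack of a summit at the start of the gene record did not mean a lack at every start. Of the 4767 genes, 2050 had more than 1 annotated start in either annotation, and 336 (7.05%) had a summit within 1 kb of another start, 126 of them in all 4 libraries. Their median CpG ratio was 0.245, against 0.156 for the 4431 left without. No olfactory receptor was among the 336. Long genes also held summits in their bodies. Of genes of at least 10 kb, 47.0% of summit-free genes had a summit in the gene body beyond the window in WT, against 67.2% of genes with a summit in all 4. These shares were 40.3% against 65.1% and 59.6% against 81.3% in Cho replicates 1 and 2. In the deletion they were 61.7% against 83.7%. Such a share depends on gene length. Per 100 kb of these genes, WT had 2.69 such summits against 4.27. Rbms3, an RNA-binding protein gene of 1057168 bases, had 48, 70, 45 and 91 such summits in Cho replicates 1 and 2, WT and the deletion, and also a summit at another annotated start in each library. Cacna1c, a calcium channel gene, had 37, 71, 31 and 76. Dlgap2, a gene of the postsynaptic density with a CpG ratio of 0.911, had 30, 47, 16 and 46 and none at another start.

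Many summit-free genes lay side by side. Ordered along each chromosome among the 17350 genes, the summit-free genes formed 1984 runs of neighbours, 1405 of a single gene, 164 of at least 5 and 72 of at least 10. The 72 runs held 1753 genes (36.8%), and 70.5% of summit-free genes had another beside them. As they make up 27.5% of all genes, some would be neighbours in any order, and that share was not computed. Runs of genes with a summit in all 4 libraries are not given for comparison. Olfactory or vomeronasal receptors were present in 43 of the 72 runs. The share of genes without a summit ranged from 15.5% on chromosome 12 to 43.1% on chromosome 7, and on chromosome 7 it was 26.5% without the sensory receptors.

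The longest run spanned 188 genes from Olfr1034 to Olfr1272 on chromosome 2, over 4.24 Mb of NCBIM37 (chr2:85886608-90122730), and 186 of them were olfactory receptors. Its 4.24 Mb held 2 and 6 summits in Cho replicates 1 and 2, 6 in WT and 13 in the deletion. Next was a run of 83 genes from Olfr557 to Olfr649 on chromosome 7, then 76 genes from Ceacam20 to Vmn1r183 on chromosome 7 (4.29 Mb), 63 of which were vomeronasal receptors type 1. The Ceacam20 run held 0, 8, 2 and 3 summits in the order Cho replicate 1, Cho replicate 2, WT and deletion.

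**Figure D5:**
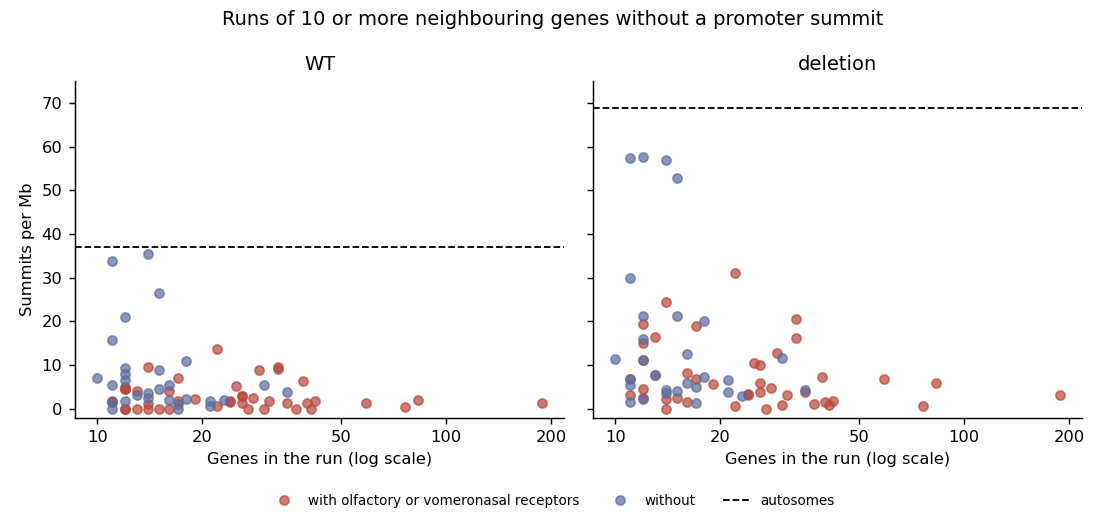
Summits per Mb (y axis) in WT and in the deletion within each of the 72 runs of at least 10 neighbouring genes without a promoter summit, against the number of genes in the run (x axis, log scale). Dashed lines mark the density over the autosomes (36.9 in WT and 68.7 in the deletion), and every run lies under the line of its library, with 4 short runs of keratins and trace amine receptors nearest to it in the deletion.

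Over the 72 runs the median density was 1.61, 4.76, 2.22 and 5.91 summits per Mb in Cho replicates 1 and 2, WT and the deletion, against 35.6, 60.6, 36.9 and 68.7 between the outermost genes of the autosomes. No summit at all was present in 25, 8, 12 and 2 of the runs. Since a run is made of genes without a promoter summit, part of the gap is set by the rule. The 29 runs without olfactory or vomeronasal receptors were shorter, with 35 genes at most. That one, from 5430401F13Rik to Kap on chromosome 6, held 24 taste receptors. Others held 21 major urinary proteins (Mup4 to Mup21), 17 killer lectin-like receptors (Klrd1 to Klra1, with 0, 1, 0 and 1 summits) and 12 pregnancy-specific glycoproteins (Ceacam3 to Psg17). Not all runs were poor in summits. In Cho replicate 2 the run Gm5414 to Krt4 had 70.8 summits per Mb, above the 60.6 of that library's autosomes. The run Krt24 to Krtap3-1 on chromosome 11, 14 genes of keratins and keratin-associated proteins in 0.281 Mb, held 10, 12, 10 and 16 summits, which is 35.5 per Mb in WT. The 15 trace amine receptors from Taar1 to Taar9 held 5, 5, 5 and 10 summits in 0.189 Mb.

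The libraries were then set side by side. Genes without a summit within 1 kb numbered 6989 (40.3%) and 5998 (34.6%) in Cho replicates 1 and 2, 6475 (37.3%) in WT and 5486 (31.6%) in the deletion. A summit in 1 library alone kept 66, 574, 19 and 289 genes out of the summit-free genes, in the same order. Their median fold enrichments were 5.07, 10.3, 5.12 and 4.92, lower than the 12.7, 19.2, 13.3 and 13.3 at genes with a summit in all 4 in the same libraries. Examples from the deletion were Cyp3a13 and Ly6g6d, and from WT Grip2, Homez and Npm2. Most of these had a summit at another annotated start in other libraries. Homez had one in Cho replicates 1 and 2 and the deletion, and Grip2 in Cho replicate 2 and the deletion. Cyp3a13 and Ly6g6d had one in Cho replicate 2, and Npm2 had none.

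When the lists of Cho replicate 2, WT and the deletion were shortened to their 76242 strongest intervals and Cho replicate 1 kept all its summits, the genes without a summit numbered 6989, 7283, 6788 and 6821, and a summit in that library alone stood at 297, 497, 111 and 66 genes. In the full lists the deletion thus had more genes with a summit than WT. With the same number of intervals in both, the counts without a summit lay close together, at 6788 in WT and 6821 in the deletion. Whether depth or genotype lay behind the longer list of the deletion cannot be told apart with 1 library each.

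Many of the genes with a summit in Cho replicate 2 alone differed between the annotations of the 2 builds. The length of the gene record differed by more than 1 kb between NCBIM37 and mm10 for 387 of those 574 genes (67.4%), and for 573 of the 667 genes that lacked a summit in Cho replicate 2 alone (85.9%). Over all genes it did so for 23.4%, and for 19.4% of the summit-free genes. Zfp53 and Zfp950, zinc finger genes with fold enrichments of 44.2 and 44.1 at their mm10 starts, had no summit within 1 kb of their NCBIM37 starts in the other libraries. For Zfp53 the nearest lay 2.281, 2.026 and 2.314 kb upstream in Cho replicate 1, WT and the deletion. Their fold enrichments were 38.8, 5.91 and 24.9. For Zfp950 it lay 21.692 and 21.701 kb upstream in Cho replicate 1 and WT, with fold enrichments of 23.2 and 24.4. In the deletion it lay 21.26 kb downstream of Zfp950 (3.69). Actb, the beta-actin gene, had no summit within 1 kb in Cho replicate 2 (1.193 kb) and fold enrichments of 17.3, 8.13 and 6.14 in Cho replicate 1, WT and the deletion.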

How the data were processed

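ATAC-Seq peak lists of 4 libraries were analysed, 1 deposited list per library. Per the study's methods, the authors ran fastp, Bowtie2, Picard for duplicate removal and MACS2 peak calling at its default q-value of 0.05, and the submitters' processing notes give Bowtie2 2.4.4, Picard 2.20.7, SAMtools 1.9 and MACS2 2.2.4. Fold enrichment, as deposited, divides the pileup at a summit by the local background, and the authors' lists also give the −log10 p-value, the −log10 q-value and a score that is 10 times the latter. These values belong to each list alone, and no depth accompanies them. The labels and methods name mm9, but the list of Cho replicate 2 was on mm10 by its sequence names and lengths.

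Gene starts were the 5′ ends of gene records in GENCODE vM1 (NCBIM37, 22380 protein-coding genes) and RefSeq GRCm38.p6 (21900). Symbols found once in both numbered 18106, of which 17357 lay on the same autosome. Another 7 were left out because their RefSeq position, before base 3000000, where the Cho replicate 2 list has no summit, was on a scaffold. Promoter sequence, the CpG ratio and recurring 100-mers were read from NCBIM37 with Python 3.11.15, numpy 2.4.6, pandas 2.3.3 and numba 0.67.0. The counting of summits and of recurring stretches was tested on simulated data.

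Samples were grouped by their labels. No test was run, since WT and the deletion had 1 library each and the peaks themselves chose the genes. The members, the 52 gene families and the marker lists were chosen with earlier results of these data known, and the symbol patterns of the cytochrome and ribosomal families were narrowed after their members were seen. Genes named in the text were the ends of the longest runs, marker genes without a summit, genes nearest to and farthest from the 1 kb limit, those with the highest CpG ratio or most summits in the gene body, family members with a summit in all 4, and the strongest summits found in 1 library alone. Single members of the ribosomal, proteasome, collagen, Hox, Sox and Pax families were named after their values were seen. The windows, thresholds and peak numbers were varied as described in the closing section.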

Additional observations from a re-analysis of the deposited data

How the results depend on the processing

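Of the values recomputed under other settings, 105 stayed within 1.5 times the main count or inside the 95% interval of the main value, and 18 moved. For shares, that interval treats genes as independent, which they are not, and it is wide for small families. Olfactory receptors thus counted as moved from 97.4% to 98.4% (500 bp), but keratins from 75.6% to 64.4% (2 kb) did not. The 105 and 18 are therefore no measure of how stable the results are. None of the counts of genes or runs moved by more than 1.5 times. The summit-free genes numbered 5279 with a window of 500 bp, 4123 with 2 kb, 5131 with a −log10 q-value of at least 5, 5597 with equal numbers of strongest intervals (Cho replicate 1 kept all its summits), 4641 when any overlap of the peak interval counted, and 4431 when any annotated start in both builds counted, a choice made after seeing the data. Without each library in turn they numbered from 4786 to 5341. The share of olfactory receptors without a summit was 98.4% at 500 bp, 95.2% at 2 kb, 98.3% at the stricter q-value and 98.9% with equal numbers of intervals, where beta-defensins stood at 100%. At 2 kb the effector genes of other cell types fell to 53.5% and the regulators to 25.5%, the latter close to the share of all genes. The median distance of summit-free genes to the nearest summit became 29.95 kb (Cho replicate 2), 28.9 kb (WT) and 30.2 kb (deletion) with equal numbers of intervals, and 41.6, 18.3, 30.4 and 15.3 kb in Cho replicates 1 and 2, WT and the deletion when summits near any protein-coding start were left out. With 500 bases on each side of the TSS, genes with a summit in all 4 had a median CpG ratio of 0.747 and GC content of 59.8%. With 50-mers in place of 100-mers the mean recurring share was 12.1% at summit-free genes and 1.64% at genes with a summit in all 4. The cause of these shifts was not tested. Peak lists without read depth cannot tell a closed promoter from one too shallowly read, and peaks under the authors' threshold are not listed. No paired analysis was possible because no test was run and WT and the deletion had 1 library each.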
